A study of Mus musculus with 16 samples.

Results

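The integrated stress response was followed through 10 genes chosen by symbol, the regulators Atf4, Atf3, Ddit3, Trib3, Ppp1r15a and Eif2ak3, the effectors Chac1 and Sesn2, and the secreted hormones Fgf21 and Gdf15. All 10 were found among the 13474 genes of the deposited count table. These genes, and the lists and motifs below, were chosen with earlier results of these data known. The RNA came from cultured mouse mesenchymal stem/progenitor cells (MSPCs), adherent stromal cells of the bone marrow from C57BL/6 mice, used between passage 5 and 10. By their titles the cells were wild type (WT) or a knockout (KO) of Nmp4, a zinc finger transcription factor whose gene is Zfp384. Day 3 cultures of either genotype were plated at 10000 cells per well in Mesencult medium with its stimulatory supplement, which does not induce differentiation, and received no further agent. Day 7 cultures were plated at 25000 cells per well in α-MEM with serum and antibiotics, and from 48 hours they also received ascorbic acid, dexamethasone (a synthetic glucocorticoid, 10 nM) and glycerol 2-phosphate, the usual osteogenic mixture. Day, plating density and medium therefore changed together.

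There were 4 libraries in each of the 4 groups (WT day 3, KO day 3, WT day 7 and KO day 7), 16 in all. By the design text each condition had 1 biological replicate, sampled as 4 technical ones. All p-values below thus speak of well-to-well spread alone, and genotype cannot be told apart from culture. Total counts were 31285188 to 47635039 per library, and the RNA integrity numbers on the sample labels were 9.3 to 10. Zfp384 RNA, the check of the labels, was no lower in KO-labelled than in WT libraries but higher: the day 3 level was 81.9 ± 1.54 CPM (the usual scale of counts relative to library size; SD, n = 4) in WT and 91.5 ± 1.73 CPM in KO-labelled libraries, and the day 7 level 88.1 ± 3.17 in WT and 117 ± 5.03 CPM in KO-labelled libraries. With the allele's structure not given in the sources used here, every genotype comparison sets libraries side by side by their labels. Levels are CPM on TMM-scaled library sizes, as mean ± SD of 4 libraries. Fold changes are on the log2 scale with an approximate standard error, and a gene was called when its edgeR quasi-likelihood p, adjusted by Benjamini-Hochberg over all 13474 genes, was under 0.05.

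In the integrated stress response, kinases that sense different stresses phosphorylate the translation initiation factor eIF2. Phosphorylated eIF2 blocks its own exchange factor eIF2B, so that protein synthesis slows while a few mRNAs with upstream reading frames, Atf4 among them, are translated more. ATF4 then switches on genes of amino acid supply and redox balance together with further factors such as CHOP (Ddit3) and ATF3, and with GADD34 (Ppp1r15a), which returns eIF2 to its working form. In bone, Atf4 is known as a factor that osteoblasts need for amino acid import and collagen production.

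ATF4 and CHOP bind DNA as dimers with C/EBP proteins at composite C/EBP-ATF response elements, so the regions before the members' start sites were read. RefSeq promoters (build GRCm38.p6, 250 bases before to 50 after the start site) were found for all 10 members. The core TGATGNAA, searched on both strands, lay in 4 members, Atf3, Trib3, Chac1 and Fgf21, and in 3.97% of 32851 promoters. Of the 10166 genes of the table that had a promoter, 2.7% held it. The following 120-base stretches are shown because all 3 hold the same 8 letters, read here on the strand opposite to the motif as written and set in capitals. They come from the minus strand at chr1:191183380-191183499 (Atf3), the plus strand at chr2:119350993-119351112 (Chac1) and the minus strand at chr7:45615566-45615685 (Fgf21).
Atf3: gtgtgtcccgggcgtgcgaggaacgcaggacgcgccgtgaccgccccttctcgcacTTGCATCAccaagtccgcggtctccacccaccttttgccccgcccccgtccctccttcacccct
Chac1: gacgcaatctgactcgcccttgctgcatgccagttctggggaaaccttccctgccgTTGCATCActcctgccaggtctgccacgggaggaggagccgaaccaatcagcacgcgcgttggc
Fgf21: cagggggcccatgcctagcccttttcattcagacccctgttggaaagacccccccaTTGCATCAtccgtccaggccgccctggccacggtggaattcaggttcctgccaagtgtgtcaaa

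Counted from the start site, the capitals span positions -110 to -103 in Atf3, -193 to -186 in Chac1 and -139 to -132 in Fgf21. In Trib3 the match TTACATCA lies behind the start site, at positions 15 to 22. The cAMP response element TGACGTCA lay in 1.79% of all promoters, in 3.56% of the 10166 table genes and in 1 member, Ppp1r15a. Its last 60 bases before the start site (minus strand, chr7:45526269-45526328) are shown with the element in capitals.
Ppp1r15a: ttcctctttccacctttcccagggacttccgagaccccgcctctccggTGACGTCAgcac

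The AP-1 site TGANTCA lay in 7.81% of all promoters, in 6.3% of the 10166 table genes and in 2 members, as TGACTCA in Ddit3 at positions -242 to -236 and as TGATTCA in Eif2ak3 at positions -185 to -179. Each of these 7 members held 1 match. None of the 3 motifs was found in Atf4, Sesn2 or Gdf15. The RefSeq start site was that of the table for 8 members, differed by 12 bases for Eif2ak3, and for Gdf15 lay 821 and 460 bases away in its 2 promoters. These matches describe letters in a window and say nothing of binding.

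At day 3, 8 of the 10 genes rose in KO-labelled against WT libraries and 2, Eif2ak3 and Sesn2, fell. At this day 86.4% of all genes were called, 43.0% as higher. By at least 2-fold 6 of the 10 rose, against 11.7% of all genes, and 0 of the 10 fell, against 17.2%. Because the 10 were chosen with earlier results of these data known, the shares of all genes give scale and are no test. Sesn2 lay just short of that bound, at -0.99 on the log2 scale, and past it at -1.02 with 1 library left out. The libraries of the genotypes did not overlap for any of the 10 at either day, as for 82.5% of all genes at day 3 and 79.9% at day 7. At day 7, 9 rose and 1, Sesn2, fell, where 86.0% of all genes were called and 41.7% were higher, and 8 rose by at least 2-fold, against 13.7%. The median log2 fold change of the 10 was 1.52 at day 3 and 3.28 at day 7, and over all genes it was 0.00 and -0.03. Fgf21 had too few WT counts for a fitted fold change. It ranked highest of the 10 at both days even at its lower bound. Its place in the table rests on its KO-labelled libraries alone, so its calls and rank are not support. The other 9 alone had medians of 1.04 and 2.99. The 6 genes past 2-fold at both days were Atf3, Ddit3, Trib3, Ppp1r15a, Chac1 and Fgf21, while Atf4 and Gdf15 passed it at day 7.

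**Figure D1:**
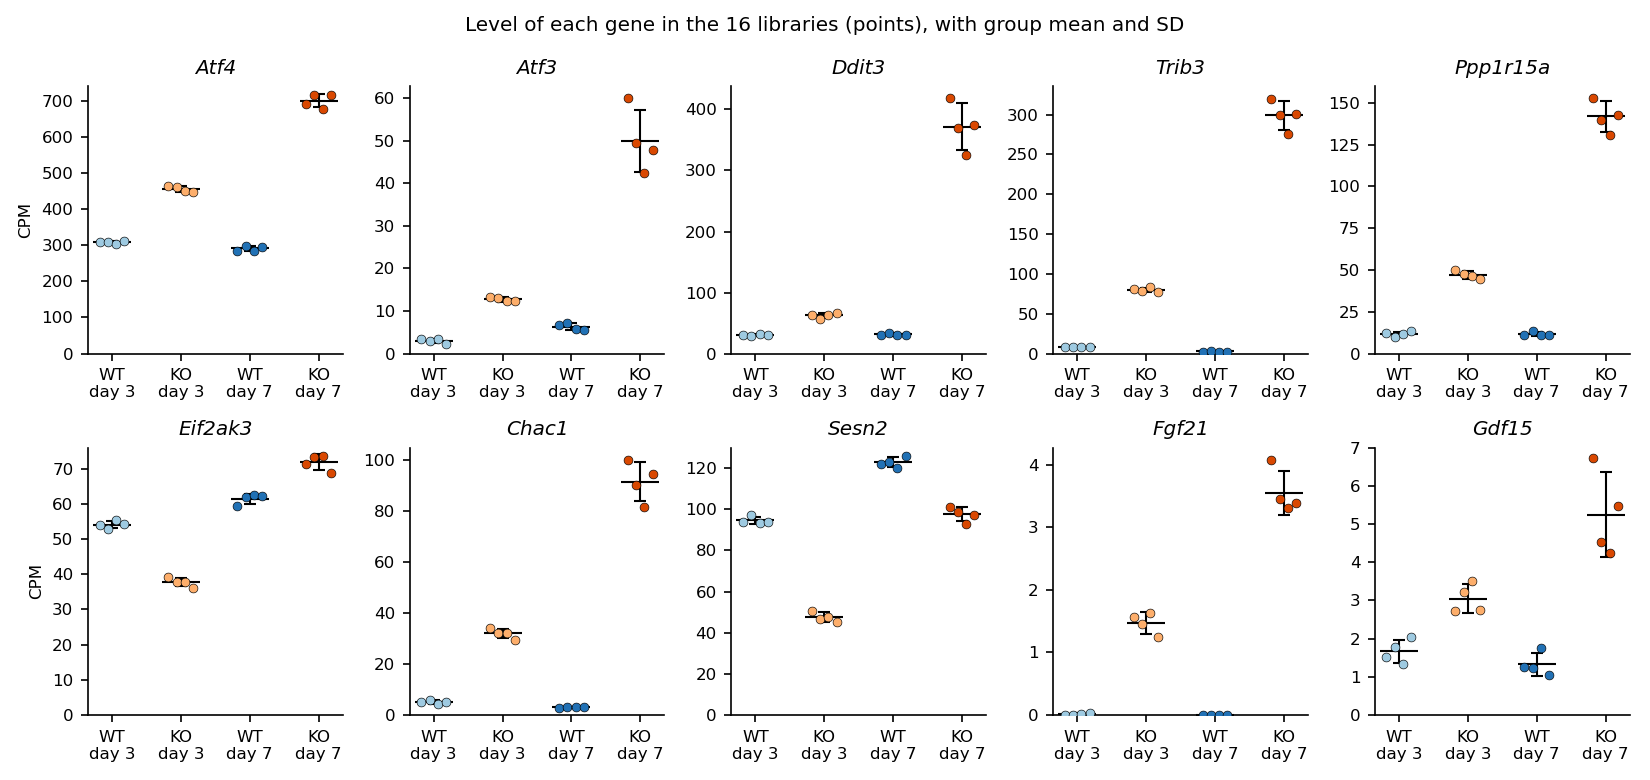
CPM of the 10 genes in each of the 16 libraries (points), with the mean and SD of the 4 libraries of a group (bars), on a linear axis from 0 that differs between panels. The 4 KO day 7 libraries are the highest in every panel but that of Sesn2, where WT day 7 is highest, and Fgf21 lies at or near 0 in the 8 WT libraries.

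The cultures were not alike in their markers either. All 8 macrophage markers (Ptprc, Adgre1, Csf1r, Cd68, Lyz2, Tyrobp, Fcer1g and Cd14) were in the table, and their summed level was 120 to 133 CPM in WT day 3, 30.6 to 37.5 in KO day 3, 135 to 155 in WT day 7 and 17.7 to 20.6 in KO day 7 libraries, with none at 0 counts in any group. The 8 stromal markers summed to 27400 to 28500, 32900 to 36200, 38000 to 40800 and 56300 to 64300 CPM in the same order, a sum carried by the collagen genes Col1a1 and Col1a2, with Lum at 0 counts in WT day 3. Of the other stromal markers, Pdgfrb was at 387, 384, 435 and 784 CPM in the same order, and Lum at 0, 1.25, 1.27 and 38.4 CPM. The remaining ones were lower in KO-labelled libraries at both days. In the same order of groups Cxcl12 was at 4830, 848, 5910 and 150 CPM, Pdgfra at 81.5, 21.7, 106 and 38.5 CPM, Thy1 at 12.7, 0.0877, 14 and 0.0608 CPM, and Eng at 3.19, 1.4, 1.82 and 1.21 CPM. The 6 osteoblast markers summed to 1440 to 1570, 817 to 890, 2810 to 3380 and 6780 to 9040 CPM, carried by Spp1. Its members differed in direction: Runx2 was at 107, 138, 142 and 178 CPM and Sp7 at 77.7, 41, 173 and 145 CPM in the same order. Of 5 adipocyte markers 2 were in the table and summed to 110 to 117, 3.13 to 4.15, 37.7 to 42.7 and 4.13 to 5.26 CPM. Of 5 endothelial markers Kdr alone was in the table, at 13.2 ± 0.519 CPM in KO day 7 and 2.08 ± 0.299 CPM or less elsewhere. In such bulk RNA fewer cells of a type and less RNA per cell cannot be told apart, and the part of these shifts in the results below was not tested. Medians of whole chromosomes also differed between the genotypes. At day 3 and day 7 the median log2 fold change was 0.675 and 0.610 on chromosome 4 (Sesn2), 0.412 and 0.282 on chromosome 7 (Ppp1r15a and Fgf21), -0.382 and -0.308 on chromosome 6 (Eif2ak3), and -0.222 and -0.202 on chromosome 10 (Ddit3). On the chromosomes of the other members (1, 2, 8 and 15) it lay between -0.083 and 0.046.

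Eif2ak3 (chr6:70844527-70905240, plus strand, mm10) encodes PERK, the eIF2 kinase that senses unfolded proteins in the endoplasmic reticulum. At day 3 its level was 54, 52.8, 55.3 and 54.3 CPM in WT libraries 1, 1b, 3 and 4, and 39.1, 37.7, 37.8 and 36.2 CPM in KO-labelled libraries 5 to 8. At day 7 it was 59.3, 61.9, 62.4 and 62.1 CPM in WT libraries 9, 10, 10b and 11, and 71.2, 73.4, 73.7 and 68.8 CPM in KO-labelled libraries 13 to 16. All 4 groups were separate, in the order KO day 7, WT day 7, WT day 3 and KO day 3, so the sign of the genotype difference turned between the days. KO-labelled against WT, the difference was -0.52 ± 0.04 (log2) at day 3 but 0.23 ± 0.04 by day 7 (edgeR quasi-likelihood test, Benjamini-Hochberg adjusted p = 2.09e-13 and 1.57e-06). Centred on its chromosome's median, it was -0.16 and 0.53. With library sizes taken from the authors' scaled columns, which raise the median of all genes by 0.49 at day 3, the day 3 value was -0.02 and no longer called (adjusted p = 0.662).

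Atf4 (chr15:80255184-80257545, plus strand) encodes the transcription factor at the centre of the response, whose output is set chiefly by translation. It was at 308, 310, 304 and 311 CPM in WT and 465, 461, 451 and 447 CPM in KO-labelled libraries at day 3. In the day 7 cultures Atf4 was at 284, 298, 284 and 296 CPM in WT and 691, 715, 678 and 717 CPM in KO-labelled libraries. The 4 groups did not overlap, and the genotypes differed by 0.57 ± 0.03 on the earlier day and 1.27 ± 0.03 on the later (edgeR quasi-likelihood test, Benjamini-Hochberg adjusted p = 1.56e-16 and 5.20e-25). The RNA thus rose 1.48-fold and 2.41-fold, and the protein was not measured.

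Per kilobase of exon, the scale on which genes can be set side by side, Atf4 was the most abundant of the 10 in WT day 3 (178 CPM per kb), KO day 3 (264) and WT day 7 (168). In KO day 7 libraries the mean of Ddit3, 428 CPM per kb, was above that of Atf4, 405 CPM per kb. These orders were not tested; in WT day 7 Ddit3 was at 36 CPM per kb.

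Ddit3 (chr10:127290793-127296288, plus strand) encodes CHOP, a C/EBP family factor known for its part in cell death under lasting stress. It was at 30.8, 28.9, 32 and 29.7 CPM in WT and 62.9, 57, 63 and 66.7 CPM in KO-labelled libraries at day 3. Day 7 values of Ddit3 were 30.4, 34, 29.9 and 31 CPM in WT and 419, 370, 326 and 375 CPM in KO-labelled libraries. The WT libraries of both days overlapped, while both KO-labelled groups stood clear of them and of each other. The difference was 1.04 ± 0.07 at day 3, or 2.05-fold, and 3.57 ± 0.07 at day 7, or 11.9-fold (edgeR quasi-likelihood test, Benjamini-Hochberg adjusted p = 9.54e-12 and 3.99e-21). The gene overlaps Mars, the methionyl-tRNA synthetase gene, on the opposite strand. The labels call the libraries strand-specific, with the use of strand in counting not given in the sources used here. Mars itself went from 125 to 192 CPM at day 3 and from 116 to 195 CPM at day 7 (log2 fold changes 0.62 and 0.74).

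Atf3 (chr1:191170297-191183333, minus strand) encodes a stress-induced bZIP factor of the ATF/CREB family. It was scarce in WT, at 3.36, 2.96, 3.36 and 2.27 CPM at day 3 and 6.66, 7.25, 5.78 and 5.49 CPM at day 7. In KO-labelled libraries it was at 13.3, 13, 12.3 and 12.3 CPM at day 3 and 60, 49.6, 42.5 and 47.8 CPM at day 7. No groups overlapped, and library 13 held the highest value at day 7. The difference was 2.08 ± 0.13 at day 3, or 4.23-fold, and 2.99 ± 0.10 at day 7, or 7.93-fold (edgeR quasi-likelihood test, Benjamini-Hochberg adjusted p = 8.57e-13 and 2.05e-17).

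Trib3 (chr2:152337425-152344060, minus strand) encodes a pseudokinase induced by ATF4 and CHOP that in turn holds ATF4 back. In WT it was at 8.24, 7.81, 8.57 and 7.93 CPM at day 3 and, by day 7, at 2.44, 3.44, 2.49 and 2.38 CPM. In KO-labelled libraries it was at 81.6, 78.4, 82.9 and 77.8 CPM at day 3 and, by day 7, at 320, 300, 276 and 301 CPM. Of the 9 members with a fitted fold change it had the widest differences at both days, 3.30 ± 0.06, or 9.83-fold, and 6.79 ± 0.07, or 111-fold (edgeR quasi-likelihood test, Benjamini-Hochberg adjusted p = 7.60e-28 and 2.00e-33). The day 7 ratio rests on 395 counts in all 4 WT libraries together, against 42866.

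Ppp1r15a (chr7:45522917-45526268, minus strand) encodes GADD34, the inducible partner that brings protein phosphatase 1 to eIF2 and so ends the response; its start site is the one with the cAMP response element shown above. At day 3 it was at 12.2, 9.99, 11.5 and 13.3 CPM in WT and 50.1, 47.4, 46.4 and 44.6 CPM in KO-labelled libraries. At day 7 it was at 11, 13.5, 11 and 11.2 CPM in WT and 153, 140, 131 and 143 CPM in KO-labelled libraries. The WT groups overlapped and the KO-labelled groups stood apart, by 2.01 ± 0.07 at day 3 (4.03-fold) and 3.60 ± 0.07 at day 7 (12.1-fold) against WT (edgeR quasi-likelihood test, Benjamini-Hochberg adjusted p = 1.18e-18 and 3.65e-24). Centred on the median of chromosome 7 the values were 1.63 and 3.30. The annotation places Tulp2 across it on the opposite strand, and Tulp2 was not analysed here.

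Chac1 (chr2:119351242-119354327, plus strand) encodes an enzyme that breaks down glutathione, the cell's main thiol antioxidant. It was at 5.08, 5.87, 4.41 and 5.04 CPM in WT and 34.1, 32.2, 32.1 and 29.5 CPM in KO-labelled libraries at day 3. Day 7 values of Chac1 were 2.87, 2.99, 2.96 and 3.05 CPM in WT and 100, 90.1, 81.7 and 94.4 CPM in KO-labelled libraries. No groups overlapped, and the differences were 2.65 ± 0.07 (6.3-fold) and 4.95 ± 0.08 (30.8-fold) (edgeR quasi-likelihood test, Benjamini-Hochberg adjusted p = 4.23e-23 and 4.53e-29).

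Sesn2 (chr4:132492807-132510456, minus strand) encodes a leucine sensor that restrains the growth kinase complex mTORC1, and it is a known target of both ATF4 and p53. It went the other way. At day 3 it was at 93.8, 97.4, 93.3 and 94 CPM in WT and 50.7, 46.9, 47.5 and 45.3 CPM in KO-labelled libraries. At day 7 it was at 122, 123, 120 and 126 CPM in WT and 101, 98.7, 93 and 97.1 CPM in KO-labelled libraries, the latter overlapping WT at day 3. The differences were -0.99 ± 0.04 and -0.33 ± 0.04 (edgeR quasi-likelihood test, Benjamini-Hochberg adjusted p = 3.14e-20 and 7.90e-10). Its chromosome as a whole was higher in KO-labelled libraries, and centred on that median the values were -1.63 and -0.93. With the authors' library sizes, under which the median of all genes was 0.55 at day 7, the day 7 value turned to 0.25.

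Fgf21 (chr7:45613890-45615490, minus strand) encodes a fasting and stress hormone made mainly by the liver. Its counts were 0, 0, 1 and 1 in the WT libraries at day 3 and 0 in all 4 at day 7. In KO-labelled libraries they were 55, 54, 52 and 38 at day 3 (1.47 ± 0.171 CPM) and 161, 120, 124 and 106 at day 7 (3.55 ± 0.347 CPM). All KO-labelled libraries were above all WT libraries. The table holds no gene with fewer than 105 counts in all, so Fgf21 is in it only through its KO-labelled libraries. That selection favours a gap between the genotypes, so the separation and calls of Fgf21 are description, not support. At day 3 the ratio was 124, with a 95% interval of 33.9 to 1030 from 199 against 2 counts. At day 7 the 511 counts against 0 make the level at least 174-fold higher, with 0 read as a floor of 3 counts over the 4 WT libraries, or 0.0205 CPM. Both bounds cover counting error only. Both were called, with an adjusted p of 4.80e-14 and 2.18e-17 by the edgeR quasi-likelihood test with Benjamini-Hochberg adjustment.

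Gdf15 (chr8:70629394-70631635, minus strand) encodes a secreted member of the TGF-β family that acts on the brainstem to lower food intake, and it too is known as a target of p53. It was low everywhere. At day 3 it was at 1.52, 1.77, 1.34 and 2.03 CPM in WT and 2.72, 3.23, 3.52 and 2.74 CPM in KO-labelled libraries. At day 7 it was at 1.27, 1.24, 1.75 and 1.05 CPM in WT and 6.72, 4.54, 4.24 and 5.46 CPM in KO-labelled libraries. The genotypes did not overlap at either day, but the WT groups overlapped each other. The differences were 0.89 ± 0.17 and 1.98 ± 0.17 (edgeR quasi-likelihood test, Benjamini-Hochberg adjusted p = 2.21e-05 and 5.67e-12). The WT values rest on 37 to 75 counts per library and are the least precise of the members with a fitted fold change.

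**Figure D2:**
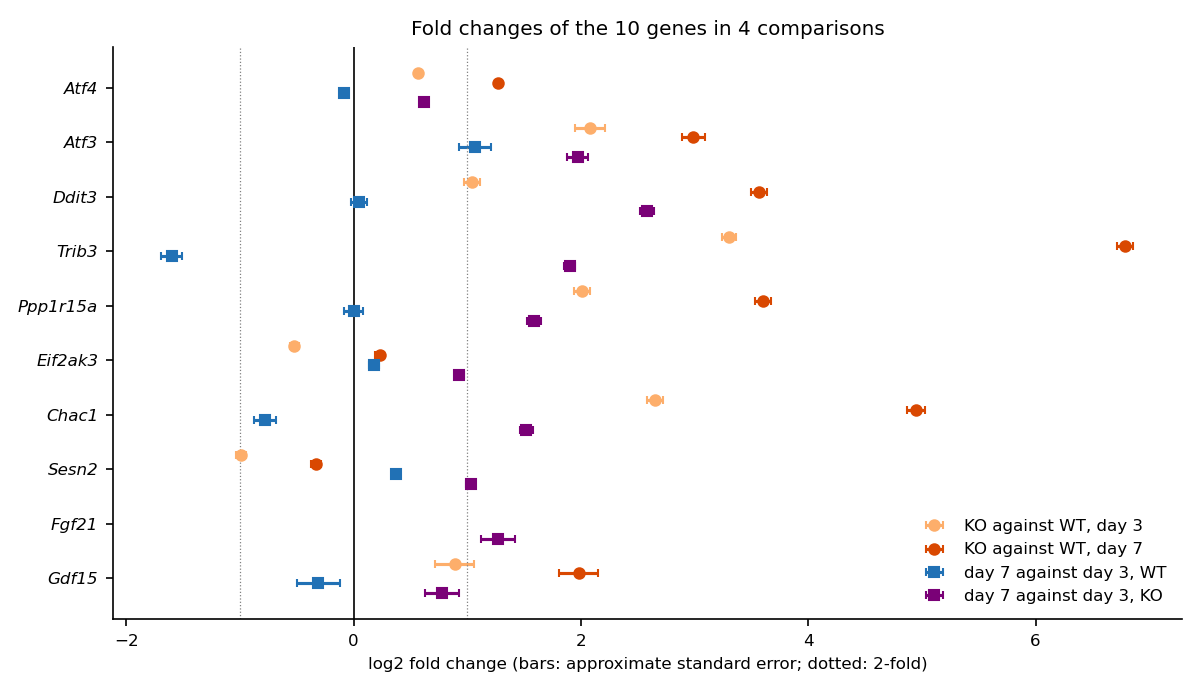
Log2 fold changes of the 10 genes in 4 comparisons, with approximate standard errors as bars and dotted lines at 2-fold. The day 7 genotype differences (dark orange circles) lie right of the day 3 ones (light orange) in all 9 rows that hold both, and the WT day difference (blue squares) lies near 0 except for Trib3, Atf3 and Chac1. Fgf21 is drawn only for day 7 against day 3 in KO-labelled libraries, because the WT libraries held 2 and 0 counts.

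Day 7 was then compared with day 3 within each genotype, a difference of time, density and medium together. From day 3 to day 7 in WT 3 of the 10 rose, 3 fell and 4 were not called, where 67.3% of all genes were called, 32.3% as higher and 34.9% as lower. By at least 2-fold 1 rose (5.89% of all genes) and 1 fell (3.79%). Atf3 rose by 1.07 ± 0.14, Sesn2 by 0.37 ± 0.03 and Eif2ak3 by 0.18 ± 0.04, while Trib3 fell by 1.60 on the log2 scale, Chac1 fell by 0.78 and Atf4 fell by 0.08. The weakest call was that of Atf4 (adjusted p = 0.0149, edgeR quasi-likelihood test, Benjamini-Hochberg), which was lost without WT day 7 library 9 or 10b (adjusted p = 0.0535 and 0.0561). Ddit3, Ppp1r15a, Gdf15 and Fgf21 had values of 0.05 ± 0.07, 0.00 ± 0.08, -0.31 ± 0.19 and 0 against 2 counts, and their libraries overlapped between the days. Without WT day 7 library 10b Gdf15 passed the test at -0.47 (adjusted p = 0.0478).

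In KO-labelled libraries all 10 were higher at day 7 than at day 3, 7 of them by at least 2-fold, where 79.9% of all genes were called, 40.6% as higher and 12.5% as higher by at least 2-fold. None of the 10 was lower, against 39.3% of all genes, 8.79% by at least 2-fold. Ddit3 rose most, by 2.58 ± 0.06, followed by Atf3 (1.97 ± 0.09), Trib3 (1.90 ± 0.05), Ppp1r15a (1.59 ± 0.06), Chac1 (1.52 ± 0.06), Fgf21 (1.27 ± 0.15) and Sesn2 (1.03 ± 0.04). Eif2ak3 rose by 0.93 ± 0.04, Gdf15 by 0.78 ± 0.15 and Atf4 by 0.62 ± 0.03, and the libraries of the days overlapped for none of the 10, as for 71.8% of all genes.

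The difference between these day effects, the genotype by day interaction, was called as higher for 9 genes and for 5 of them by at least 2-fold, where 66.0% of all genes were called, 32.5% as higher and 9.21% by at least 2-fold. None of the 10 was called lower, against 33.5% of all genes, 7.04% by at least 2-fold. It was 3.50 ± 0.10 for Trib3, 2.53 ± 0.09 for Ddit3, 2.29 ± 0.12 for Chac1, 1.59 ± 0.10 for Ppp1r15a and 1.09 ± 0.24 for Gdf15. It was 0.91 ± 0.17 for Atf3, 0.75 ± 0.05 for Eif2ak3, 0.70 ± 0.04 for Atf4 and 0.66 ± 0.05 for Sesn2. The adjusted p of Fgf21 was 0.0618 (edgeR quasi-likelihood test, Benjamini-Hochberg), and no size can be given for it. The interaction shares its libraries with the comparisons above and is not separate evidence.

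Within a group, the same libraries were often at the ends for several members. In KO day 7 library 13 was the highest for 8 of the 10, while it was the highest for 23.7% of genes at 1 CPM or more, and library 15 was the lowest for 9 of 10, against 32.1% of genes. In KO day 3 library 8 was the lowest for 8 of 10, against 25.8% of genes. The spread between KO day 7 libraries reached a coefficient of variation of 21.3% for Gdf15, 14.7% for Atf3 and 10.3% for Ddit3, but only 2.68% for Atf4.

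The other genes that set eIF2 activity had smaller medians than the members. Of 11 measured kinases, phosphatase partners and subunits of eIF2 and eIF2B, 8 were higher and 2 lower in KO-labelled libraries at both days. By at least 2-fold 1 and 2 rose, and the medians of the 11 were 0.23 and 0.20. Among all genes 43.0% and 41.7% were called as higher, 11.7% and 13.7% by at least 2-fold. Eif2b3, a subunit of the exchange factor, rose by 1.25 ± 0.05 and 1.46 ± 0.06, and Eif2s2, the β subunit of eIF2, by 0.84 ± 0.04 and 1.21 ± 0.04. Ppp1r15b, the constitutive counterpart of GADD34, went from 126 ± 1.01 to 181 ± 2.31 CPM at day 3 and from 122 ± 2.85 to 186 ± 3.6 CPM at day 7 (0.52 ± 0.03 and 0.61 ± 0.03). Among the other eIF2 kinases, Eif2ak2 (PKR, which senses double-stranded RNA) fell by 0.67 at day 3 and rose by 0.16 ± 0.05 at day 7, and Eif2ak1 (the heme-regulated kinase) rose by 0.21 ± 0.04 and 0.18 ± 0.04. Eif2ak4 (GCN2, which senses uncharged tRNA) rose by 0.09 ± 0.04 at day 3 and fell by 0.23 at day 7. These counts depended on the scale. With total counts 7 and 5 of the 11 were higher and 3 and 3 lower. Eif2b3 lies on chromosome 4, whose median was higher in KO-labelled libraries. With each chromosome centred on its median, 7 and 6 were higher and 2 and 2 lower. On that scale 0 rose by at least 2-fold at day 3 and 1 at day 7, with medians of 0.52 and 0.30. With the authors' library sizes 10 and 11 were higher and 1 and 0 lower, 5 and 4 rose by at least 2-fold, and the medians were 0.73 and 0.78, where the median of all genes was 0.49 and 0.55.

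Among partners of ATF4 and related stress factors, mostly of the bZIP family, 9 of 17 measured were higher and 5 lower at day 3. The same counts were 15 and 2 at day 7, and the medians were 0.23 and 0.76. For comparison, 43.0% and 41.7% of all genes were called as higher. With the authors' library sizes the days differed less in count, with 14 higher and 2 lower at day 3, 16 higher and 1 lower at day 7, and medians of 0.73 and 1.33. Atf5, a factor translated like Atf4, went from 58.6 ± 1.66 to 247 ± 8.54 CPM at day 3 and from 52.5 ± 2.49 to 368 ± 24.6 CPM at day 7 (2.08 ± 0.04 and 2.81 ± 0.04). Nupr1, a small stress-induced chromatin protein, rose by 1.36 ± 0.05 and 2.31 ± 0.04, and Cebpb, a C/EBP partner, by 0.38 ± 0.14 and 1.98 ± 0.14. Cebpa, the C/EBP factor of fat and myeloid cells, fell from 60.9 ± 2.35 to 7.5 ± 0.356 CPM at day 3 and from 64 ± 3.4 to 8.54 ± 0.941 CPM at day 7. Adipocyte and macrophage markers were lower in the same libraries, as given above.

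Known targets of ATF4 and CHOP outside the 10 were listed with earlier results of these data known. Of 20 measured, 17 were higher and 3 lower at each day, where 43.0% and 41.7% of all genes were called as higher. By at least 2-fold 15 and 17 rose (medians 1.52 and 2.48), against 11.7% and 13.7% of all genes. The most changed were Stc2, a secreted glycoprotein (0.741 ± 0.128 to 18 ± 0.921 CPM at day 3, 0.0958 ± 0.0174 to 26 ± 2.29 CPM at day 7), the cystine transporter gene Slc7a11 (3.93 ± 0.13 and 6.14 ± 0.16) and the lipoprotein receptor gene Vldlr (4.25 ± 0.06 and 5.69 ± 0.06). Slc7a3, a cationic amino acid transporter, rose by 2.56 ± 0.10 and 4.30 ± 0.09. The 3 that fell at both days, named after their values were seen, were Tnfrsf10b (-2.32 ± 0.03 and -2.61 ± 0.03), which encodes a death receptor, the mTORC1 inhibitor Ddit4 (-1.53 ± 0.07 and -0.58 ± 0.07) and the cell cycle inhibitor Cdkn1a (-2.86 ± 0.04 and -0.37 ± 0.04). All 3 are also known targets of p53, and whether this has a part in their fall was not tested. With the authors' library sizes 18 were higher and 1 lower at day 7.

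**Figure D3:**
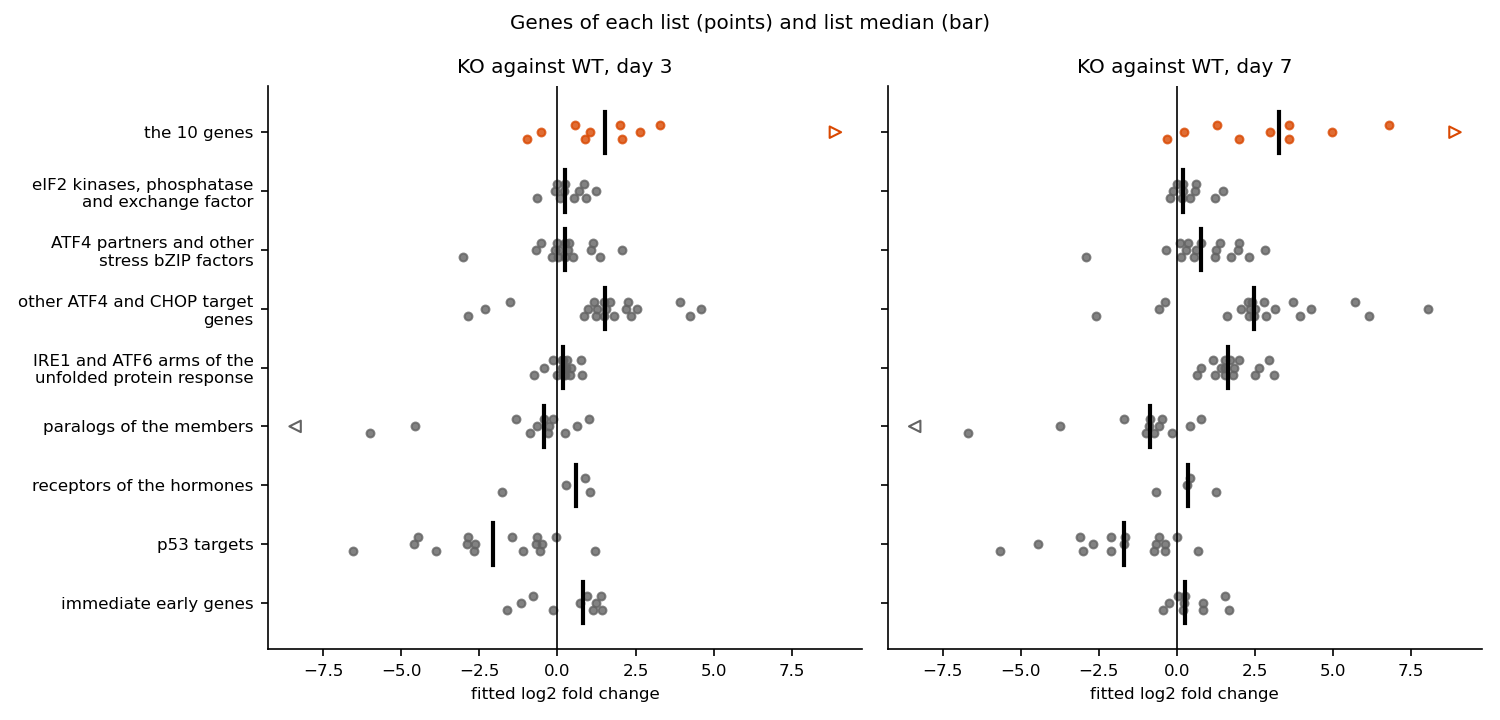
Fitted log2 fold changes, KO-labelled against WT, of the 10 genes (orange) and of the genes of each list (grey points), at day 3 (left) and day 7 (right), with the list median as a black bar. Open triangles at the edge stand for genes with 0 to 2 counts in 1 of the groups (Fgf21 at both days, Gdf10 at day 3 and Gdf5 at day 7), whose fitted value is not shown. The unfolded protein response arms lie near 0 at day 3 (median 0.17) and to the right of 0 at day 7 (median 1.62), and p53 targets lie mostly left of 0 at both days.

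The IRE1 and ATF6 arms of the unfolded protein response, which restock the endoplasmic reticulum with chaperones and run beside PERK, differed between the days. At day 3, 12 of 16 genes were higher and 3 lower but 0 changed by at least 2-fold (median 0.17). At day 7 all 16 were higher, 14 by at least 2-fold (median 1.62). The shares of all genes called as higher were 43.0% and 41.7%, and by at least 2-fold 11.7% and 13.7%. With the authors' library sizes 2 rose by at least 2-fold at day 3 and 16 at day 7 (medians 0.67 and 2.20). The interaction was called as higher for all 16, with a median of 1.53, and for 32.5% of all genes. Hspa5, the chaperone BiP, went from 825 ± 4.38 to 1430 ± 16.4 CPM at day 3 and from 807 ± 38.6 to 6910 ± 381 CPM at day 7. Sdf2l1, Manf and Creld2, all products of the endoplasmic reticulum stress programme, had log2 fold changes of 0.30 ± 0.06, 0.75 ± 0.04 and 0.29 ± 0.05 at day 3 and of 2.93 ± 0.05, 2.63 ± 0.04 and 2.51 ± 0.05 at day 7. Xbp1, the factor activated by IRE1, was at 114 ± 1.96 and 115 ± 2.31 CPM at day 3 (0.01 ± 0.03, adjusted p = 0.792 by edgeR quasi-likelihood and Benjamini-Hochberg) and rose from 126 ± 3.27 to 297 ± 7.29 CPM at day 7. Atf6 rose at both days, by 1.13 ± 0.04 and 1.72 ± 0.04. The 10 genes, by contrast, had a median of 1.52 at day 3, or 1.04 without Fgf21. The difference between the lists was not tested.

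Targets of p53 were listed because Sesn2, Gdf15 and Atf3 answer to it as well. Of 16 listed genes, Trp53 among them, 14 fell and 1 rose at each day (medians -2.05 and -1.69). By comparison, 43.4% and 44.3% of all genes were called as lower. The one that rose, named after its values were seen, was Plk2 at day 3 and Bbc3 at day 7. With the authors' library sizes 12 fell and 2 rose at day 3, and 11 fell and 4 rose at day 7 (medians -1.55 and -1.11). Cdkn1a was also counted among the ATF4 and CHOP targets, and Sesn1 also stands among the paralogs below. Trp53 itself was not called, at 220 ± 3.75 and 215 ± 5.77 CPM at day 3 (-0.03 ± 0.04) and 155 ± 5.67 and 155 ± 12.3 CPM at day 7 (0.01 ± 0.04). Ccng1, cyclin G1, went from 1140 ± 13.4 to 51.6 ± 2.86 CPM at day 3 and from 1140 ± 28.6 to 52.1 ± 5.51 CPM at day 7, and Eda2r, Phlda3 and Zmat3 fell by 5.67, 3.10 and 3.02 on the log2 scale at day 7. Sesn2 fell beside these genes, while Gdf15 and Atf3 rose.

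The listed relatives of the members, which include other Fgf and Gdf genes, were mostly lower. Of 13 measured paralogs 2 were higher and 10 lower at day 3, and 2 higher and 11 lower at day 7 (medians -0.42 and -0.87). Among all genes 43.4% and 44.3% were called as lower. With the authors' library sizes, though, 6 were higher and 4 lower at day 3 and the median of the paralogs turned to 0.08. The 2 higher ones were Trib1 (0.62 ± 0.05 and 0.42 ± 0.06) and Trib2 (1.01 ± 0.05 and 0.77 ± 0.05), pseudokinases like Trib3. Chac2, the constitutive relative of Chac1, fell too, from 4.77 ± 0.613 to 3.6 ± 0.509 CPM on day 3 and from 5.07 ± 0.283 to 2.74 ± 0.389 CPM on day 7. Sesn1 and Sesn3 fell with Sesn2, by 0.64 and 0.28 at day 3 and by 0.74 and 0.17 at day 7. Log2 fold changes at day 3 and day 7 were -0.14 and -0.87 for Fgf7 and -0.30 and -0.99 for Gdf11. They were -1.34 and -0.59 for Fgf1 and -0.88 and -1.70 for Fgf18. Fgf2 was not called at day 3 (0.24 ± 0.22) and was lower at day 7 (-0.49 ± 0.22). Fgf1, Fgf2 and Fgf18 were at 1.41 CPM or less in every group. The growth factors Gdf6 (5.38 ± 0.667 to 0.0802 ± 0.0593 CPM at day 3, 11.7 ± 0.454 to 0.862 ± 0.146 CPM at day 7), Gdf5 (2.52 ± 0.126 to 0.105 ± 0.0412 CPM at day 3) and Gdf10 (5.34 ± 1.17 to 0.0512 ± 0.055 CPM at day 7) fell where Gdf15 rose.

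Of the receptors for the hormones, the co-receptor Klb of FGF21, the receptor Gfral of GDF15 and Fgfr4 were not in the table. Fgfr1, the main partner of Klb, rose from 156 ± 4.68 to 324 ± 6.37 CPM at day 3 and from 415 ± 24 to 987 ± 43.9 CPM at day 7. Fgfr2 rose by 0.89 ± 0.04 and 0.31 ± 0.04, Fgfr3 by 0.27 ± 0.11 and 0.42 ± 0.07, and Ret, the signalling partner of Gfral, fell by 1.77 and 0.68.

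The pattern of Ddit3 over the 4 groups was closest to that of Coro6, Sybu, Slc27a1, Apol9a and Hspa5, with a root mean square difference of 0.19 to 0.21 between centred log2 group means, among 10347 genes with at least 10 CPM in 1 group. Hspa5 was the one of these 5 that also stood in a list above. Slc27a1, a fatty acid transporter, had group means of 11.8, 26.9, 14.9 and 120 CPM in WT day 3, KO day 3, WT day 7 and KO day 7. Closest to Atf4 were Pptc7, Dus4l, Spata5, B3glct and Cmss1, with differences of 0.027 to 0.042. The group means of Atf4 span a narrower range than those of Ddit3, so its differences are not comparable with those above. Each likeness is over 4 group means of the same libraries and carries no test.

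Ppp1r15a and Fgf21 are neighbours, with start sites 89.2 kb apart on chromosome 7, and the genes between and around them were examined after the values had been seen. Within 100 kb of either start site lay 13 other measured genes, of which 7 were higher by at least 2-fold at day 7 and 1 lower (median 1.15). At day 3, 3 were higher and 1 lower by that measure (median 0.29). Over the 998 genes of chromosome 7, 17.2% were higher by at least 2-fold at day 7 and 18.5% at day 3. The 7 were Bcat2, Ftl1, Gys1, Hsd17b14, Mamstr, Plekha4 and Rasip1. Of these, Hsd17b14 (0.43 to 1.12 CPM), Mamstr (0.342 to 1.88 CPM) and Rasip1 (0.0477 to 0.88 CPM) were scarce in both genotypes at day 7. Plekha4, whose start site lies 0.062 kb upstream of that of Ppp1r15a, went from 2.47 to 8.36 CPM at day 7 (log2 fold change 1.76) and from 1.26 to 1.72 CPM at day 3 (0.42). Bcat2, a branched-chain amino acid transaminase, went from 35.2 to 102 CPM at day 7 (1.54) and from 23.6 to 28.8 CPM at day 3 (0.29). The lower one, Dhdh, fell by 1.83 at day 7 and 2.32 at day 3. Around all 10 members lay 43 such genes, 10 higher and 3 lower by at least 2-fold at day 7, against 13.7% and 16.9% of all genes.

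**Figure D4:**
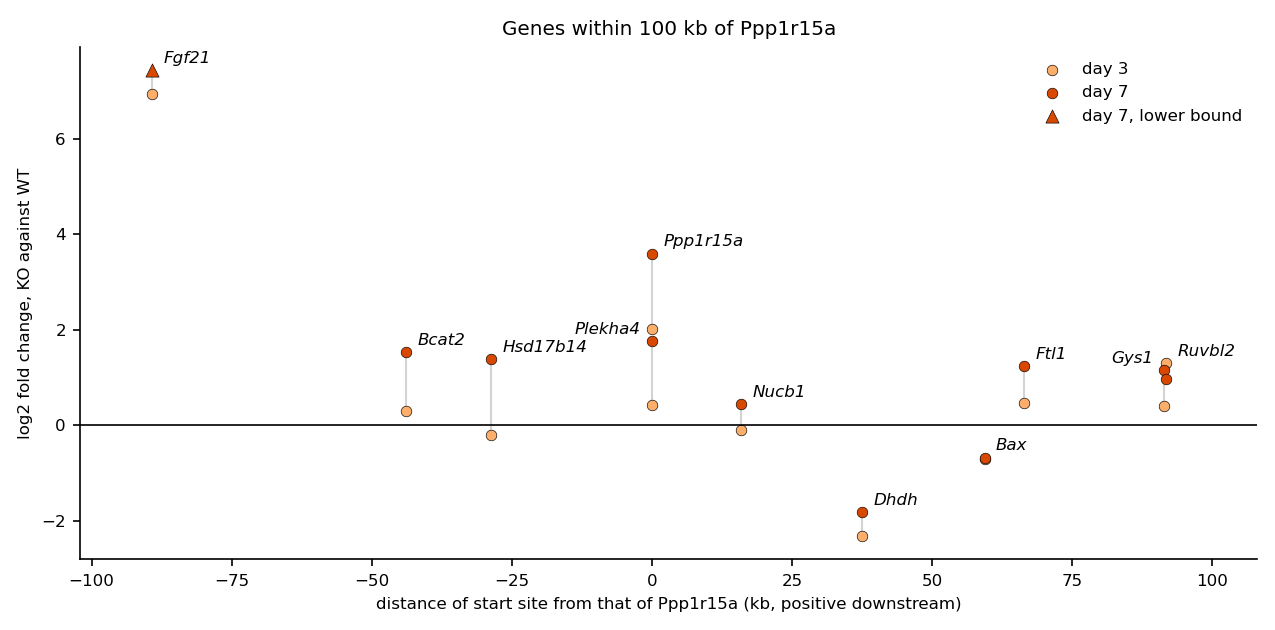
Log2 fold change, KO-labelled against WT, of the measured genes whose start site lies within 100 kb of that of Ppp1r15a, against the distance between start sites in kb (positive in the direction of transcription of Ppp1r15a). Light points are day 3 and dark points day 7, joined by a grey line. Fgf21 is drawn at the log2 of its count ratio of 124 at day 3 and of its lower bound of 174 at day 7 (triangle). Plekha4, Bcat2 and Hsd17b14 lie between 1.38 and 1.76 at day 7, below Ppp1r15a at 3.60, and Bax and Dhdh lie below 0 at both days.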

How the data were processed

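RNA was read from 16 libraries, 4 per group by title. The authors deposited raw counts of whole reads for each gene. STAR 2.4.2a, featureCounts, edgeR and mm10 are named in the submitters' processing notes, with no role stated and the annotation not given in the sources used here. Deposited columns headed CPM were treated as signal, because each equals the counts over 1 library size of the authors', 0.745 to 1.348 times the total count. They served only as an alternative scale, and CPM were computed anew from the counts. Deposited exon lengths gave CPM per kb. The table holds no gene with fewer than 105 counts in all, and 22 symbols had turned into dates and were not named.

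Counts were fitted with edgeR 4.0.16 in R 4.3.3, with TMM factors, 4 group means, the robust quasi-likelihood test and Benjamini-Hochberg adjustment over 13474 genes; filterByExpr removed 0. The dispersion was 0.00181, a variation of 4.25% between wells, so small differences passed at this depth. The fit was tested on simulated data. Bounds use a floor of 3 counts per group. The members, lists and motifs were chosen with earlier results of these data known. Named beside the members were up to 4 called genes per list with the largest day 7 change and 1 CPM or more in 1 of the groups, the receptors and paralogs, Xbp1, Atf6 and the eIF2 kinases, and the 5 genes most like Ddit3 and Atf4 in log2(CPM + 0.01). Alternatives were other scalings, DESeq2 1.42.0, a filter, fewer samples and summed or left-out libraries. Libraries 1 and 1b, and 10 and 10b, share a number but differed beyond sampling noise (chi-square per degree of freedom 2.89 and 4.74, other pairs 2.33 to 17.88), and entered separately. Promoters were taken from RefSeq.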

Additional observations from a re-analysis of the deposited data

Results flagged for a closer look

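Among the groups of 4 libraries tested for a library far from the rest, 2 of 38 stood out, and chance gives about 1 in 20. In WT day 7 library 10, Trib3 was at 3.44 CPM, a gap of 0.888 of the group's range, and Ppp1r15a was at 13.5 CPM, a gap of 0.918, both past Dixon's critical value at the 95% level. The same library was the highest of its group for 5 of 9 members and for 30.8% of genes at 1 CPM or more. Whether this library differs in its culture or in its preparation was not tested.

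The genotype difference changed between the days, by the interaction in the edgeR quasi-likelihood fit, for 9 members (Benjamini-Hochberg adjusted p in brackets). The change was 3.50 for Trib3 (8.48e-22), 2.53 for Ddit3 (2.82e-15), 2.29 for Chac1 (5.51e-16), 1.59 for Ppp1r15a (7.72e-13) and 1.09 for Gdf15 (2.57e-04). It was 0.91 for Atf3 (8.43e-05), 0.75 for Eif2ak3 (3.66e-13), 0.70 for Atf4 (1.39e-14) and 0.66 for Sesn2 (3.27e-12). Day, medium and density cannot be told apart in these values, and 66.0% of all genes passed the same test.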

How the results depend on the processing

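The counts of members past 2-fold in the direction most members took stayed within 1.5 times the reported ones under every alternative run. They were 5 to 8 at day 3 (reported 6), 8 at day 7 and 1 in WT over time (the fall of Trib3). In KO-labelled libraries over time they were 6 to 7, and for the interaction 5. With 1 library left out at a time they were 6, 8, 1, 7 and 4 to 6. Changes the other way were not in these counts. Sesn2 at day 3 (-0.99) reached -1.63 after chromosome centring and -1.02 with 1 library left out. The rise of Atf3 in WT over time (1.07) went down to 0.97 in both kinds of alternative. The authors' library sizes raised the median of all genes to 0.49 at day 3 and 0.55 at day 7, with 3473 higher and 1567 lower by at least 2-fold at day 3 in place of 1583 and 2322, and 3950 and 1398 at day 7 in place of 1851 and 2279. With total counts the day 7 median was -0.16. Under the authors' sizes Sesn2 at day 7 was 0.25, Eif2ak3 at day 3 was -0.02, and in WT over time Ddit3 was -0.05, Eif2ak3 0.09 and Gdf15 -0.40. Uncalled in WT over time, Ppp1r15a (0.00) took the other sign at 0.01 with median of ratios factors, chromosome centring, only the groups compared or DESeq2, at 0.02 with total counts, and at -0.08 to 0.06 with 1 library left out. Atf4 in WT over time was -0.02 after chromosome centring. The causes were not tested. No paired analysis was possible because the groups share no replicate number.

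Limits: 1 culture per condition, few counts for Fgf21 and Gdf15 in WT, and chromosome-wide shifts beside Sesn2, Eif2ak3 and Ppp1r15a.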

Other observations

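Immediate early genes, which answer growth factors and handling within minutes, were listed for comparison. Of 10 measured, 6 were higher and 3 lower in KO-labelled libraries at day 3 (median 0.83), and 7 higher and 2 lower at day 7 (median 0.24). Among all genes 43.0% were called as higher and 43.4% as lower at day 3, and 41.7% and 44.3% at day 7. Ier2 and Ier3 rose by 0.72 ± 0.07 and 0.94 ± 0.05 at day 3 and by 1.65 ± 0.07 and 1.53 ± 0.06 at day 7. Dusp1 rose by 1.43 ± 0.06 and 0.84 ± 0.06, and Myc from 80.9 ± 3.39 to 211 ± 4.3 CPM at day 3 and from 94.3 ± 4.18 to 168 ± 5.68 CPM at day 7. Fos, named after its values were seen, fell by 1.61 and 0.46.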
